A study of Mus musculus with 5 samples.

Results

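The GIMAP family was followed in single-cell transcriptomes of mouse bone marrow. Its members were taken by gene symbol, and all 8 that were sought, Gimap1, Gimap3, Gimap4, Gimap5, Gimap6, Gimap7, Gimap8 and Gimap9, were among the 15287 genes of the table. The family was selected on its counts in these 5 libraries and in marker-defined stem, lymphoid and myeloid cells, so its differences between them are given as a description, with fold changes and errors but no p-values for the members, and support nothing by themselves. GIMAP proteins (GTPases of immunity-associated proteins) are small GTP-binding proteins, many of them anchored to the membranes of organelles, whose genes lie side by side in mammalian genomes. They are best known from lymphocytes, where several members act in the survival of T and B cells, and loss of Gimap5 in rodents is known to deplete T cells and to disturb hematopoietic stem cells. Their roles in progenitors of the other blood lineages are less well described.

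The libraries came from bone marrow of Fgd5CreERT2/+ Rosa26Tomato/+ mice at 20 weeks of age, in which 1 Fgd5 allele drives ZsGreen and a tamoxifen-inducible recombinase. Tomato appears only after recombination, and the animals were untreated. All cells were CD45.2+, lacked lineage markers and carried c-kit (Lin-kit+). Of the 5 libraries, 3 were Lin-kit+ cells without a further gate (libraries a, b and c here), and 2 were reporter-positive, either Lin-kit+ZsGreen+ cells (Fgd5+) or cells that in addition were Sca1+CD150+CD48- (HSC-Fgd5+). The Chromium system marks each captured 3' end with a unique molecular identifier (UMI), and levels are given as UMIs of a gene scaled to all UMIs of its library or cell class (CPM, UMIs in 1000000).

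Barcode suffixes in the table name no population. They were assigned by cell number, 793 for Fgd5+ and 519 for HSC-Fgd5+, so that every comparison between populations depends on this assignment, and for both reporter-positive samples the labels contradict themselves on the gate. The Lin-kit+ libraries held 1339 to 6147 cells and 10000606 to 36080242 UMIs, and the reporter-positive libraries 4168367 (Fgd5+) and 2166655 UMIs (HSC-Fgd5+). Median depth lay between 3721 and 6567 UMIs per cell. Whether libraries came from separate mice is not given, so the p-values measure the spread between these libraries, which may be technical. Of the barcodes, 62 occurred in more than 1 library, and in the HSC-Fgd5+ library 111 cells had over 10% mitochondrial UMIs, against 3 to 33 cells in each of the others. Neither set of cells, when left out, changed which members were called below. The 10 stem cell markers, among them Procr, Hlf and Slamf1, summed to 1992 and 2141 CPM in the reporter-positive libraries and to 72.1 to 77.2 CPM in the Lin-kit+ libraries.

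In GRCm38 with the GENCODE M21 annotation, the 8 genes occupy 123.618 kb of chromosome 6, from 48647234 to 48770851, in the order Gimap8, Gimap9, Gimap4, Gimap6, Gimap7, Gimap1, Gimap5 and Gimap3. Of these, 6 lie on the + strand, and Gimap6 and Gimap3 on the - strand. Exons of a read-through gene, Gm28053, cover 81 exonic bases of Gimap7, 198 of Gimap1 and 153 of Gimap5, but Gm28053 itself had only 3 UMIs over all libraries. The antisense gene Gimap1os overlaps 1107 exonic bases of Gimap1 and was not in the table. Among the last 500 bases of the annotated transcripts, where 3' counting reads, 0 windows of 50 bases of any member occurred in the transcripts of another member.

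Promoters of the members were read from RefSeq (GRCm38.p6), which had an entry for each of the 8 genes and a second entry for Gimap8, 9 in all. Shown are the 250 bases before the annotated start of Gimap1, Gimap5 and Gimap6, the members whose levels ran closest to the summed level of the family, and of Gimap7, whose levels ran otherwise. They lie at chr6:48738797-48739046 (+ strand), chr6:48745947-48746196 (+), chr6:48708245-48708494 (-) and chr6:48718371-48718620 (+). All are written 5' to 3' along the gene, and capitals mark matches on either strand to the 3 motifs searched, none of which overlapped another here. In Gimap1 and Gimap7 the match lies on the other strand and reads ACCACA.
Gimap1: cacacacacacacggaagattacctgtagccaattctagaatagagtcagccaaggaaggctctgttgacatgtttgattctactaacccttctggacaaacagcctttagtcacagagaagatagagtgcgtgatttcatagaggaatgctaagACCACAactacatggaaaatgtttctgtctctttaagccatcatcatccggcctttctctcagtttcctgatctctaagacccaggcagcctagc
Gimap5: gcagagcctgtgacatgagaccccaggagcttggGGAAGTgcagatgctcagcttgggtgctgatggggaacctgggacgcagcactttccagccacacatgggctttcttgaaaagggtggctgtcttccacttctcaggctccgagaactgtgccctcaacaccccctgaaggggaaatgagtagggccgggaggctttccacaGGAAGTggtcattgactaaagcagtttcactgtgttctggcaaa
Gimap6: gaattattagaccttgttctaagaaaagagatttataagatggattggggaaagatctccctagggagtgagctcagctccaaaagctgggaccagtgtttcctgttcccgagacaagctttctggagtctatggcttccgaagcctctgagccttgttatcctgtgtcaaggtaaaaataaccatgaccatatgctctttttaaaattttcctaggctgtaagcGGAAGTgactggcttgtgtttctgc
Gimap7: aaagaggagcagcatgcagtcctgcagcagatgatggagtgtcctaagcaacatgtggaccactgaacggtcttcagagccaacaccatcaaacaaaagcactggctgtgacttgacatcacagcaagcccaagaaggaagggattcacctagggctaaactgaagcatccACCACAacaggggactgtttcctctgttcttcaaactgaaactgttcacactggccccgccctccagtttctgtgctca

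The motifs were a RUNX core (TGTGGT), an ETS core (GGAAGT) and a GATA core (AGATAA), named for families of transcription factors that act in blood cells. The RUNX core occurred in 3 of the 9 member promoters, those of Gimap1, Gimap4 and Gimap7, and in 14% of 32851 promoters of the same length. The ETS core occurred in 2 of 9, those of Gimap5 and Gimap6, against 19.7% of all promoters, and the GATA core in 0 of 9 against 9.99%. With 9 promoters these counts are a description of the sequences, and they followed neither the group of Gimap1, Gimap5 and Gimap6 nor Gimap7 alone.

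Transcripts of the family were far more abundant in cells sorted on the Fgd5 reporter. The 8 members together gave 57.5, 52.1 and 48.1 CPM in Lin-kit+ libraries a, b and c, against 826 CPM in Fgd5+ and 901 CPM in HSC-Fgd5+ cells. The UMIs of each library were added up, and edgeR's quasi-likelihood test set the 2 reporter-positive against the 3 Lin-kit+ libraries in all 11991 genes that passed its filter on low counts, with adjusted p (Benjamini-Hochberg) under 0.05 as the threshold. All 8 members passed the filter, and 7 of them were called higher in reporter-positive cells and 0 lower, where 32.7% of all genes tested were called higher and 30.4% lower. Gimap3 and Gimap8, at no more than 0.600 and 0.268 CPM in any Lin-kit+ library, passed the filter through the reporter-positive libraries alone. No lower call was thus open to them, and they are among the 7 called and in the member values that follow. The median log2 fold change was 3.86 over the members and 0.07 over all genes tested. A fold change of at least 3 on the log2 scale was reached by 5 members and by 6.19% of all genes, as higher calls. For all 8 members both reporter-positive libraries lay above all Lin-kit+ libraries in CPM, as they did for 61.8% of genes.

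These folds follow TMM scaling in edgeR. With scaling by library totals, as in CPM, the median of all genes moved up by 0.53 on the log2 scale, and 54.9% of genes were called higher and 16.6% lower. Sums over sorted cells cannot tell more transcripts per cell from more cells that carry them, and the shares of cells are given further on.

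**Figure D1:**
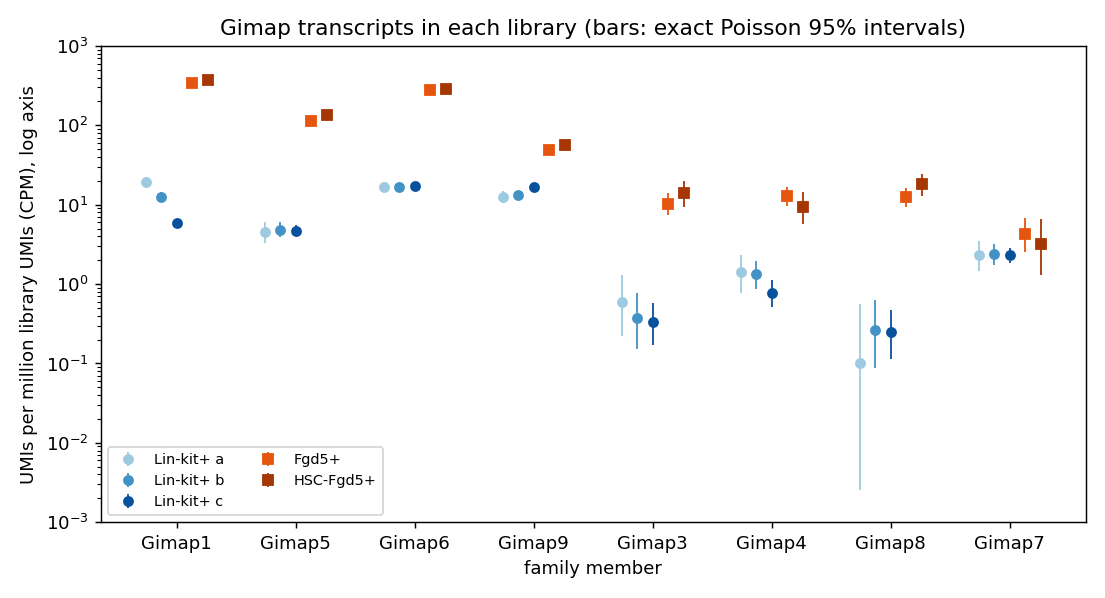
Level of each Gimap gene in the 5 libraries, in CPM on a log axis. Circles are the 3 Lin-kit+ libraries, squares the 2 reporter-positive libraries, and bars exact Poisson 95% intervals. Squares lie above the circles for each gene, by the least for Gimap7, where the intervals overlap.

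Gimap1, which mature T and B cells need for their survival, had 19.4, 12.6 and 5.85 CPM in libraries a, b and c, 345 CPM in Fgd5+ and 373 CPM in HSC-Fgd5+ cells. The Lin-kit+ libraries differed among themselves, with library a the highest, yet the lowest reporter-positive library was 17.8 times as high as library a. Its log2 fold change was 4.36 (SE 0.42, edgeR).

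Gimap5, the member tied to lysosomes and to the survival of T cells, had 4.5, 4.87 and 4.71 CPM in the Lin-kit+ libraries, 112 CPM in Fgd5+ and 136 CPM in HSC-Fgd5+ cells. The groups were far apart and the Lin-kit+ libraries close together. Its log2 fold change was 4.17 (SE 0.11). Gimap6, a partner of the autophagy protein Gabarapl2, had 16.6, 16.9 and 17.1 CPM in the Lin-kit+ libraries, 280 CPM in Fgd5+ and 291 CPM in HSC-Fgd5+ cells. Libraries of each group lay close together, and the groups did not overlap. Its log2 fold change was 3.54 (SE 0.07).

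Gimap8, a member with several GTP-binding domains, was close to absent from Lin-kit+ cells, with 1, 5 and 9 UMIs in libraries a, b and c (0.100, 0.268 and 0.249 CPM). It had 52 UMIs in Fgd5+ and 39 UMIs in HSC-Fgd5+ cells, or 12.5 and 18.0 CPM. Both reporter-positive libraries stood clear of the others. The log2 fold change of Gimap8 was 5.42 (SE 0.33), and it rests on few molecules in the Lin-kit+ libraries.

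Gimap3, a close relative of Gimap5, had 0.600, 0.375 and 0.333 CPM in the Lin-kit+ libraries, 10.3 CPM in Fgd5+ and 13.8 CPM in HSC-Fgd5+ cells. Its log2 fold change was 4.34 (SE 0.30). Gimap4, which affects the death of T cells, had 1.40, 1.34 and 0.776 CPM in the Lin-kit+ libraries, 12.7 CPM in Fgd5+ and 9.23 CPM in HSC-Fgd5+ cells. Its log2 fold change was 2.85 (SE 0.33). For both genes the groups did not overlap, and the folds grew when the few lymphoid cells were left out, as given below.

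Gimap9, a little studied member, had 12.6, 13.3 and 16.8 CPM in the Lin-kit+ libraries, 48.2 CPM in Fgd5+ and 56.8 CPM in HSC-Fgd5+ cells. Reporter-positive libraries were higher throughout, by less than for the other 6 genes called. Its log2 fold change was 1.32 (SE 0.15). Gimap7 was the exception. It had 2.3, 2.41 and 2.3 CPM in the Lin-kit+ libraries, 4.32 CPM in Fgd5+ and 3.23 CPM in HSC-Fgd5+ cells. These are 18 and 7 UMIs in Fgd5+ and HSC-Fgd5+ cells, and their counting intervals overlapped with those of the Lin-kit+ libraries. The log2 fold change of Gimap7 was 0.21 (95% interval -0.40 to 0.82) and did not pass the threshold. It did with library totals, at 0.74, while without the Fgd5+ library it was -0.093.

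**Figure D2:**
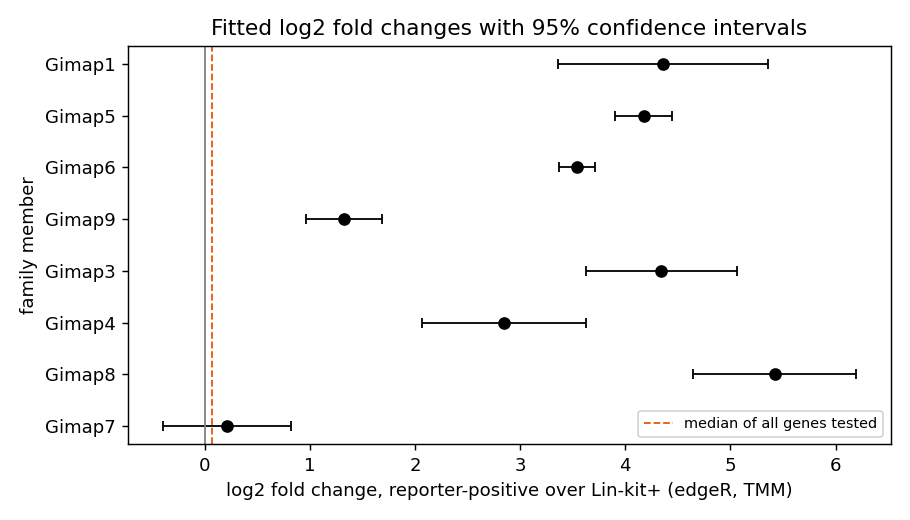
Log2 fold change of each Gimap gene of reporter-positive over Lin-kit+ libraries, with 95% confidence intervals from edgeR. The dashed line is the median of all 11991 genes tested, 0.07, and only the interval of Gimap7 crosses 0.

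Between the gates of the reporter-positive libraries, with 1 library each and so no test, the ratio of HSC-Fgd5+ to Fgd5+ was 1.09 for the summed members (95% counting interval 1.03 to 1.15) and 1.21 for Gimap5 (1.045 to 1.406). The intervals of the other 7 members included 1, from a ratio of 0.726 for Gimap4 to 1.44 for Gimap8.

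Markers of other cells that carry GIMAP transcripts were summed beside these levels. The T or NK list (12 of 15 genes in the table) gave 97.9 CPM in Fgd5+ and 85.4 CPM in HSC-Fgd5+ cells against 727 to 813 CPM in the Lin-kit+ libraries. Most of the Lin-kit+ sum was Nkg7 (712 to 798 CPM), which is also a leading gene of a neutrophil-like cluster. Without Nkg7, left out after its values were seen, the other 11 genes gave 58.8 CPM in Fgd5+ and 66.9 CPM in HSC-Fgd5+ cells against 15 to 20.2 CPM, thus higher with the family, and their part in the result was not tested. The clusters put 1 cell of each reporter-positive library among the T or NK-like cells. In each reporter-positive library 3 of its 12 genes were at 0, namely Cd3d, Cd2 and Il7r in Fgd5+ and Cd2, Ncr1 and Tcf7 in HSC-Fgd5+ cells. The endothelial list (9 of 10 genes in the table, including Tie1 and Tek, which stem cells also express) gave 140 and 154 CPM against 27.5 to 30.9 CPM. Of its genes, Lyve1 and Plvap were at 0 in Fgd5+ and Cdh5 and Lyve1 in HSC-Fgd5+ cells, and the part of endothelial transcripts in the result was not tested. Erythroid markers (12 genes) gave 1969 and 2042 CPM against 532 to 690.5 CPM, with Car1, Rhd and Ermap among those at 0 in Fgd5+ cells and Rhd at 0 in HSC-Fgd5+ cells. Megakaryocyte markers (8 genes, none at 0) gave 523 and 430.2 CPM against 114 to 151 CPM, and B-lymphoid markers (8 genes) 47.5 and 66.0 CPM against 44.1 to 51.5 CPM. Their part in the result was not tested. Division genes (10 genes) were lower, at 538 and 649 CPM against 1101 to 1217 CPM, and their part was not tested either. Lymphoid-primed multipotent markers (7 genes) gave 153.5 and 120.5 CPM against 237 to 259 CPM. Mast or basophil markers (8 genes) gave 140 and 166 CPM against 1395 to 1609 CPM. Monocyte or dendritic, neutrophil and eosinophil markers were lower as well. What these lists contribute was not tested.

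The share of cells with a GIMAP transcript depends on depth, so each cell was thinned to 1000 UMIs, which left out 8 Lin-kit+ and 8 HSC-Fgd5+ cells with fewer. At least 1 UMI of any member was then found in 55.5% of Fgd5+ cells (exact binomial 95% interval 51.9 to 59.0) and 56.2% of HSC-Fgd5+ cells (51.7 to 60.5). In libraries a, b and c the shares were 6.72%, 6.29% and 5.66%, and in neutrophil-like Lin-kit+ cells, where the summed level was low, 0.886% (median 5362.5 UMIs per cell before thinning). Without thinning, the shares were 96.5% of Fgd5+, 86.7% of HSC-Fgd5+, 14.9% to 20.6% of Lin-kit+ and 5.71% of neutrophil-like cells. Intervals cover counting error only.

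Single members were seen in fewer cells at this depth. Gimap1 was found in 27.4% of Fgd5+ and 32.1% of HSC-Fgd5+ cells and in 1.06% to 2.54% of the cells of the Lin-kit+ libraries. For Gimap6 these shares were 28.4% and 23.7% against 2.24% to 2.49%, and for Gimap5 13% and 12.5% against 0.597% to 0.930%. Gimap3, Gimap4 and Gimap8 were each seen in at most 2.54% of the cells of any library. Gimap7 was found in 2 of 793 Fgd5+ cells, 1 of 511 HSC-Fgd5+ cells and 41 of 11573 Lin-kit+ cells, shares that did not differ beyond their intervals. UMIs of at least 2 different members fell in the same cell in 17.7% of Fgd5+ and 19.0% of HSC-Fgd5+ cells, against 0.569% to 1.12% of the cells of the Lin-kit+ libraries and 0 of 3610 neutrophil-like cells, which allows a share of up to 0.0831% (3 cells of the total).

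**Figure D3:**
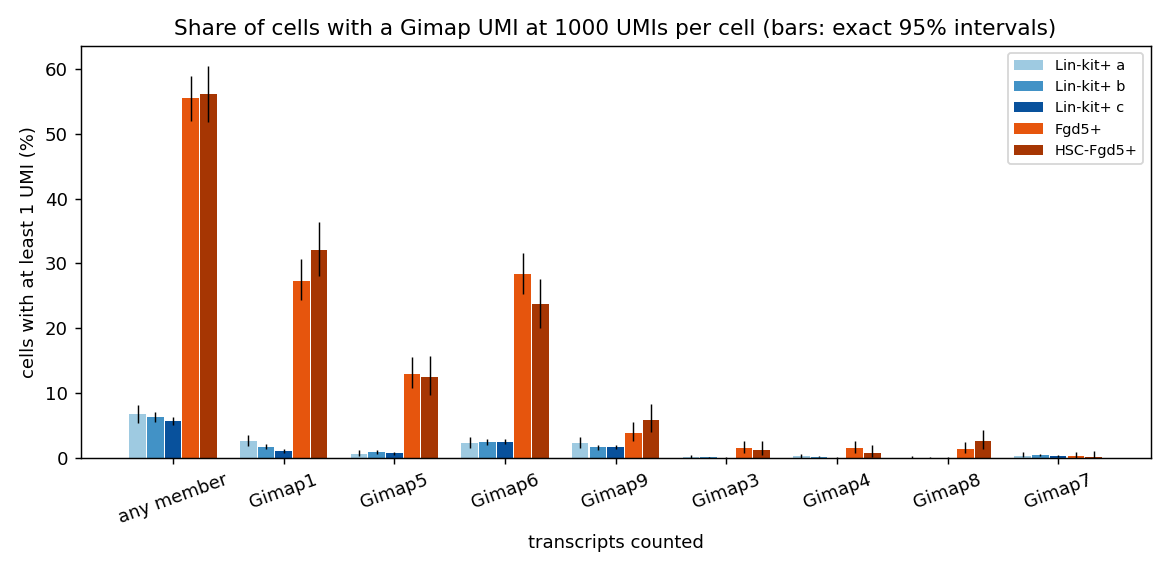
Share of cells with at least 1 UMI of any Gimap gene and of each gene, after every cell was thinned to 1000 UMIs, with exact binomial 95% intervals. Any member was found in 55.5% and 56.2% of reporter-positive cells and in 5.66% to 6.72% of the cells of the Lin-kit+ libraries.

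To place the transcripts within the Lin-kit+ libraries, cells were clustered without the GIMAP genes and clusters were named by marker lists. A name needed at least 3 markers of its list at 2-fold or more and in 5% of the cells of the cluster. Since these names come from the same cells, levels between classes are described and not tested, and with 374 stem-like, 1258 lymphoid-primed multipotent-like, 46 T or NK-like and 26 B-lymphoid-like cells some rest on few UMIs. Of the reporter-positive cells, 1296 of 1312 were stem-like and lay mostly in 1 cluster with Meg3, Mllt3, Hlf and Mecom among its leading genes, while 349 of the 374 stem-like Lin-kit+ cells lay in another, led by genes that include Hbb-bt, Rtp4 and Hlf.

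Summed over the members, T or NK-like cells were highest among the Lin-kit+ classes, with 3059, 1343 and 1652 CPM in libraries a, b and c. B-lymphoid-like cells followed with 972, 513 and 637 CPM, stem-like cells with 467, 536 and 417 CPM and lymphoid-primed multipotent-like cells with 212, 216 and 199 CPM. Of these neighbours in the order, B-lymphoid-like and stem-like cells overlapped between libraries, and the others did not. Mast or basophil-like cells had 128 ± 4.89 CPM (SD, n = 3 libraries), megakaryocyte-like cells 90.5 ± 15.1 and erythroid-like cells 82.6 ± 12.1, the last pair overlapping. Eosinophil-like cells had 0 to 94.9 CPM from 5 UMIs in all, too few to place. At the low end, neutrophil-like cells had 10.3 ± 2.45 CPM, an unnamed class led by genes that include Mpo 8.76 ± 1.65 and monocyte or dendritic-like cells 7.29 ± 1.51, which overlapped. Lymphoid-primed multipotent-like cells, with 9.56% of the UMIs of the Lin-kit+ libraries, carried 38.9% of their GIMAP UMIs, while neutrophil-like cells carried 7.19% from 32.1% of the UMIs. The stem-like and lymphoid-primed levels depended on how the classes were drawn. At the resolutions 0.5 and 2 only 41 and 22 Lin-kit+ cells kept the stem name, with 733 and 770 CPM. Of the 349 cells that make up most of the stem-like class here, 326 fell into the lymphoid-primed class at resolution 0.5 and 339 into unnamed clusters at resolution 2. The lymphoid-primed level was 168 and 444 CPM at these resolutions. Where cells were gated by their own marker UMIs, the order turned, with 433 CPM in 105 stem-like and 504 CPM in 177 lymphoid-primed cells. The order of these classes, and the gradients of single members given next, thus hold for the classes as drawn at resolution 1. They do not hold for each cluster within them. The lymphoid-primed cluster of 407 Lin-kit+ cells led by Dntt had 442 CPM (exact Poisson 95% interval 410 to 475) and the other lymphoid-primed cluster 120 CPM. The main stem-like cluster of 349 Lin-kit+ cells had 441 CPM (402 to 483). Gimap6 had 206 CPM (185 to 229) in the Dntt-led cluster and 194 CPM (169 to 223) in this stem-like cluster.

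The members followed these classes in different ways. Gimap1, Gimap5 and Gimap6 were graded over stem-like, lymphoid-primed multipotent-like, erythroid-like and neutrophil-like cells. Gimap6 had 180, 230 and 196 CPM in stem-like cells of libraries a, b and c, 70.7, 88.6 and 88.9 CPM in lymphoid-primed multipotent-like cells, 17.8, 19.5 and 22.6 CPM in erythroid-like cells and 0.346, 0.165 and 1.44 CPM in neutrophil-like cells. No library of one of these classes overlapped with the next. Gimap5 had, over the same classes in turn, 39.2, 53.9 and 74.8 CPM, 14.3, 17.8 and 19.4 CPM, 11.4, 10.7 and 6.72 CPM and 0, 0.330 and 0.507 CPM, again without overlap. Gimap1 kept this order within each library, at 184, 198 and 78.2 CPM in stem-like, 68.7, 54.5 and 22.1 CPM in lymphoid-primed multipotent-like and 43.2, 18.2 and 8.56 CPM in erythroid-like cells. Other classes did not all fall into these steps. Gimap5 had 17.9, 17.0 and 14.2 CPM in mast or basophil-like cells, which overlapped with lymphoid-primed multipotent-like cells. Gimap1 had 59.8, 39.6 and 27.5 CPM in mast or basophil-like and 73.6, 10.9 and 22.2 CPM in megakaryocyte-like cells. These lay above lymphoid-primed multipotent-like cells in library c for the former and in libraries a and c for the latter.

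Gimap3, Gimap4 and Gimap8 were scarce in stem-like Lin-kit+ cells, with 2 UMIs each (1.78 CPM pooled, exact Poisson interval 0.216 to 6.44). In stem-like reporter-positive cells Gimap3 had 10.5 (Fgd5+) and 13.96 CPM (HSC-Fgd5+), Gimap4 12.5 and 8.37 CPM and Gimap8 12.7 and 18.1 CPM, all above the upper bound of that interval. Of their own intervals, only that of Gimap4 in HSC-Fgd5+ cells overlapped with it (4.96 to 13.2 CPM, 18 UMIs). The stem-like reporter-positive cells belong mostly to other clusters than the stem-like Lin-kit+ cells, so clusters and sorts cannot be told apart in this difference. Only 24 Lin-kit+ cells lay in the main cluster of the reporter-positive cells, and their summed level, 746 CPM (exact Poisson 95% interval 554 to 984), overlapped with those of the Fgd5+ and HSC-Fgd5+ cells beside them, 888 and 963 CPM. Among Lin-kit+ cells, T or NK-like cells carried 19 of 25 Gimap3 UMIs (76.0%) and 43 of 67 Gimap4 UMIs (64.2%), with 0.190% of all UMIs. Gimap3 was at 155 CPM and Gimap4 at 350 CPM in these cells, pooled over libraries, and no Gimap3 UMI was found in lymphoid-primed multipotent-like cells (upper bound 0.596 CPM). When T or NK-like and B-lymphoid-like cells were left out of all libraries, the log2 fold change between reporter-positive and Lin-kit+ libraries was 6.32 for Gimap3 and 4.75 for Gimap4, and those of Gimap1, Gimap5 and Gimap6 were 4.42, 4.29 and 3.66.

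Gimap7, whose protein hydrolyses GTP, was found on the lymphoid side. It had 19.5, 16.2 and 16.6 CPM in lymphoid-primed multipotent-like cells of libraries a, b and c, which carried 69.5% of its Lin-kit+ UMIs. In stem-like cells it had 7.84, 7.19 and 17.0 CPM, 14 UMIs in all, against 4.17 and 3.26 CPM in stem-like Fgd5+ and HSC-Fgd5+ cells. Pooled over libraries, the level was 138 CPM in T or NK-like and 63.8 CPM in B-lymphoid-like cells, on 17 and 5 UMIs. It had 0 UMIs in erythroid-like cells, where the exact Poisson interval reaches 0.653 CPM, and 0 in mast or basophil-like and in megakaryocyte-like cells. Within the lymphoid-primed class, the cluster of 407 Lin-kit+ cells led by Dntt, Flt3, Il7r and Ly6d, genes of early lymphoid progenitors, had 54.2 CPM of Gimap7 (43.6 to 66.6). The other cluster of the class, with 851 Lin-kit+ cells and led by Cd34, had 3.31 CPM (1.85 to 5.46). Gimap6, Gimap5 and Gimap1 differed less between these clusters, with 206 and 41.9 CPM of Gimap6, 42.2 and 9.27 CPM of Gimap5 and 67.5 and 29.1 CPM of Gimap1.

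Gimap9 was spread over more classes. Pooled over libraries, it was highest in T or NK-like cells, at 212 CPM on 26 UMIs (exact Poisson interval 138 to 310). Libraries a, b and c had 199, 109 and 323 CPM there. In B-lymphoid-like cells it had 115 CPM pooled on 9 UMIs (52.5 to 218). That interval overlapped with the pooled one of stem-like cells (45.5 CPM, 33.9 to 59.8). By library, Gimap9 had 54.9, 39.6 and 44.2 CPM in stem-like cells of libraries a, b and c. It had 44.9, 60.3 and 53.3 CPM in mast or basophil-like and 33.8, 37.2 and 50.5 CPM in lymphoid-primed multipotent-like cells. The stem-like, mast or basophil-like and lymphoid-primed ranges overlap. Erythroid-like cells had 24.1, 28.3 and 35.4 CPM. In neutrophil-like cells Gimap9 gave 192 of the 236 UMIs of the family, or 7.27, 8.92 and 9.89 CPM. In stem-like Fgd5+ and HSC-Fgd5+ cells it stood at 48.8 and 57.2 CPM, and only the higher of these lay above all stem-like Lin-kit+ libraries.

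**Figure D4:**
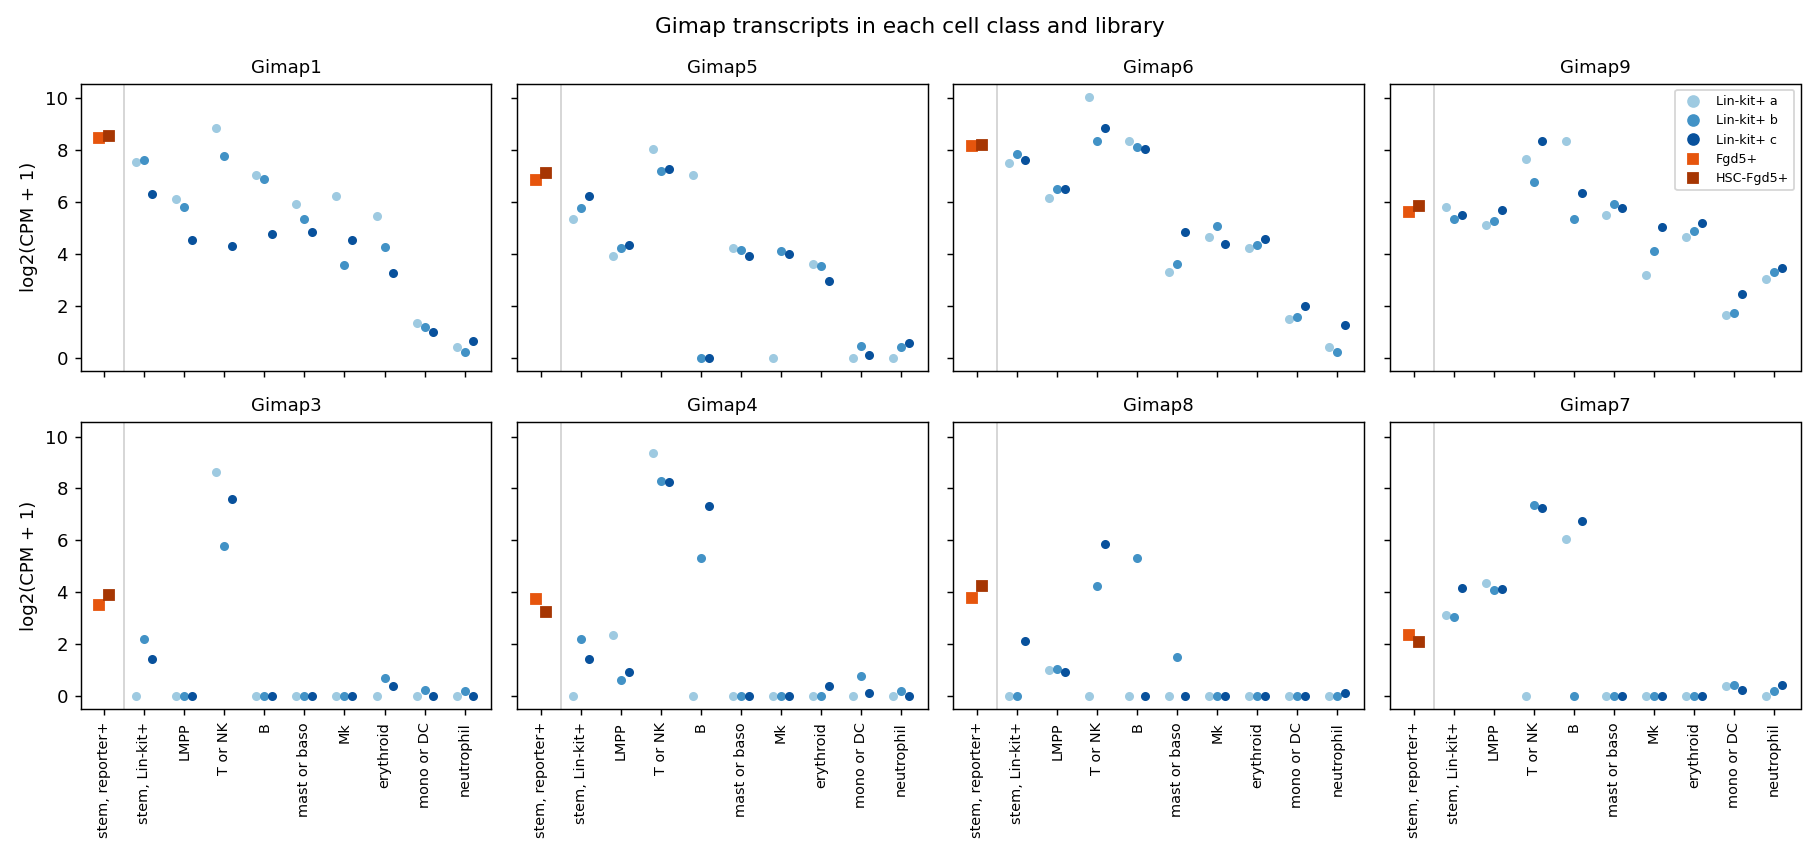
Level of each Gimap gene by cell class, as log2(CPM + 1). Circles are the 3 Lin-kit+ libraries and squares the stem-like cells of the 2 reporter-positive libraries. LMPP stands for lymphoid-primed multipotent, Mk for megakaryocyte, baso for basophil and DC for dendritic cells. Apart from the T or NK and B classes, Gimap1, Gimap5 and Gimap6 are highest in stem and lowest in monocyte or dendritic and neutrophil cells, Gimap3 and Gimap4 are high in T or NK cells, and Gimap7 is at 0 in the mast, Mk and erythroid classes.

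Within classes the levels also differed between clusters. Of the erythroid-like clusters, the one led by genes that include Gata1, Klf1 and Apoe had 105 CPM of summed members (94.5 to 117) and the one with Hba-a1, Rhd and Ermap among its leading genes, genes of hemoglobin and of red cell membranes, 41.9 CPM (34.2 to 50.9). Gimap1 and Gimap5 were apart, with 26.4 and 14.3 CPM in the first cluster against 2.46 and 0.821 CPM in the second, while Gimap9 had 35.1 and 27.5 CPM with overlapping intervals. The clusters differed in depth, with a median of 2877 UMIs per cell in the first and 8061.5 in the second. Counted per cell, the family gave 0.356 UMIs in the first and 0.362 in the second, so that the summed difference is one of CPM only, while Gimap1 (0.0894 and 0.0213 UMIs per cell) and Gimap5 (0.0484 and 0.00709) remained lower in the second and Gimap9 was higher there (0.119 and 0.238).

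A cluster of 69 cells held 43 Fgd5+ and 25 HSC-Fgd5+ cells, and 10 of 10 division genes were raised in it. Its summed GIMAP level was 482 CPM in Fgd5+ (420 to 551) and 525 CPM in HSC-Fgd5+ cells (440 to 621), against 888 (858 to 919) and 963 CPM (919 to 1008) in the main reporter-positive cluster. Gimap6 had 164 and 171 CPM in the dividing cells against 302 and 311 CPM, and Gimap5 55.5 and 31.1 CPM against 122 and 152 CPM. No Gimap4 UMI was found in the dividing cells of either library, where the exact Poisson interval reaches 8.20 CPM in Fgd5+ cells, against 14.1 CPM in Fgd5+ cells of the main cluster (10.5 to 18.5). In HSC-Fgd5+ cells it reaches 14.3 CPM, against 9.56 CPM in the main cluster (5.67 to 15.1), so no difference is shown there. Dividing cells had a median of 9960 UMIs and the cells of the main cluster 4036. Per cell the family gave 5.05 UMIs in dividing Fgd5+ and 5.4 in dividing HSC-Fgd5+ cells against 4.37 and 3.72 in the main cluster. The lower summed level is thus one of CPM and not of UMIs per cell. Gimap6 was also higher per cell in the dividing cells (1.72 and 1.76 against 1.49 and 1.20 UMIs). Gimap5 was lower per cell mainly in HSC-Fgd5+ cells (0.581 and 0.320 against 0.601 and 0.587), where it rests on 8 UMIs in 25 dividing cells. Gimap4 was at 0 against 0.0694 and 0.0370. At such levels 43 and 25 dividing cells are too few to tell a decrease per cell.

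Gimap1 differed between the Lin-kit+ libraries more than the other well counted members. Its highest level, in library a, was 3.32 times the lowest, in library c. Of 6801 genes with at least 500 UMIs in these libraries, 57 had a ratio at least as large, Gimap1 among them, and the median ratio was 1.135. For Gimap6 and Gimap5 the ratio was 1.03 and 1.08. The ratio of library a to library c for Gimap1 was 2.36 in stem-like, 3.11 in lymphoid-primed multipotent-like, 2.18 in mast or basophil-like and 5.04 in erythroid-like cells, so that it was in the same direction in each of these classes. Antisense and read-through genes overlap Gimap1, as given above, and the cause of the spread was not tested. Without library c, the log2 fold change of Gimap1 between reporter-positive and Lin-kit+ libraries was 3.98, and without library a 4.74.

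**Figure D5:**
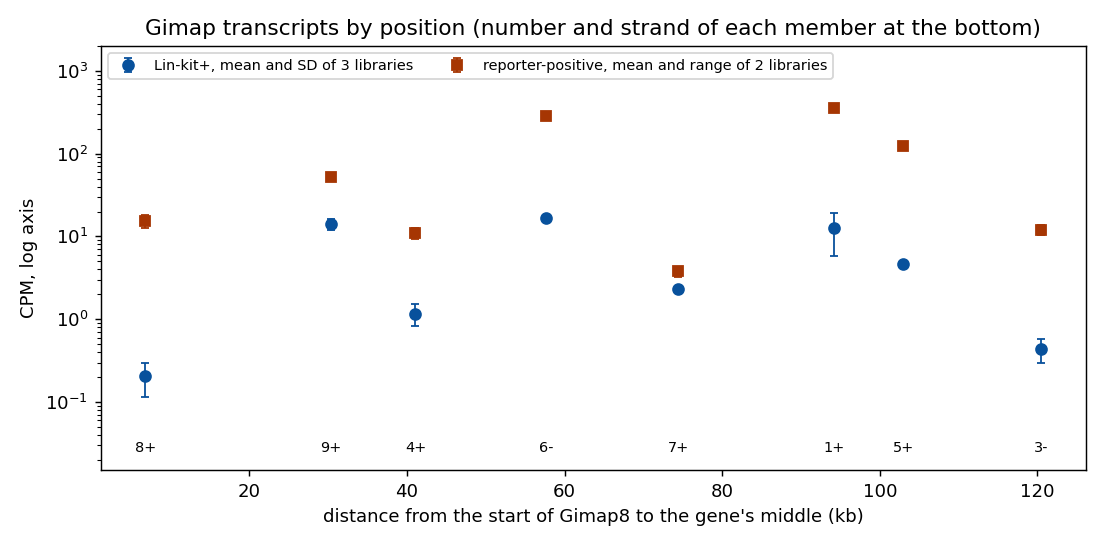
Level of each Gimap gene against the distance of its middle from the start of Gimap8, in kb. Circles are the mean and SD of the 3 Lin-kit+ libraries and squares the mean and range of the 2 reporter-positive libraries, in CPM on a log axis. Circle and square lie closest together for Gimap7, which stands between Gimap6 and Gimap1.

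Along the locus, the changes did not follow the order of the genes. Gimap7, the only member not called, lies between Gimap6 and Gimap1, and Gimap9, with the smallest change among those called, between Gimap8 and Gimap4. The genes beside the cluster were also higher in reporter-positive cells, in 4 of the 4 neighbours tested (Repin1, Zfp775, Tmem176a and Tmem176b), with a median log2 fold change of 1.64. Of all genes tested, 32.7% were called higher, and 54.9% with library totals, so 4 genes are few to set against these shares. Tmem176a and Tmem176b, which encode membrane proteins of the same family, had 344 and 642 CPM in reporter-positive against 65.6 ± 3.19 and 123 ± 2.97 CPM (SD, n = 3) in Lin-kit+ libraries. Their log2 fold changes were both 1.85 (SE 0.08 and 0.07, edgeR adjusted p = 4.22e-06 and 2.72e-06). Those of the zinc finger genes Repin1 and Zfp775 were 1.36 (SE 0.12, edgeR adjusted p = 6.51e-05) and 1.44 (SE 0.34, edgeR adjusted p = 0.00845). Rarres2, Aoc1 and Gimap1os were not tested. A lincRNA between Gimap5 and Gimap3, 4833403J16Rik, named after its values were seen, had 0.400, 0.642 and 0.748 CPM in libraries a, b and c, 20.4 CPM in Fgd5+ and 21.2 CPM in HSC-Fgd5+ cells.

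GIMAP proteins have been tied to Bcl2 family proteins and to the Gabarap family of autophagy proteins, and 12 of these genes were tested. In reporter-positive cells 4 were higher and 4 lower, with a median log2 fold change of 0.06, where 32.7% of all genes were higher and 30.4% lower. Gabarapl1 rose to 214 from 38.5 ± 1.73 CPM (log2 fold change 1.94, SE 0.08, edgeR adjusted p = 4.09e-06) and Map1lc3a to 11.7 from 1.19 ± 0.432 CPM (2.75, SE 0.43, edgeR adjusted p = 0.00121). Bak1 and Bax, which open the mitochondrial outer membrane in cell death, and Bad, which acts against Bcl2, fell by 1.3, 1.21 and 1.07 on the log2 scale (SE 0.08, 0.08 and 0.14, edgeR adjusted p = 1.87e-05, 2.62e-05 and 0.000481). Bcl2, which protects cells from death, had 87.2 against 55.0 ± 2.24 CPM with a log2 fold change of 0.13 (SE 0.08, edgeR adjusted p = 0.206), and Gabarapl2, a partner of Gimap6, had 157 against 104 ± 6.59 CPM with one of 0.06 (SE 0.09, edgeR adjusted p = 0.607). Bcl2l11, another opponent of Bcl2, had a log2 fold change of -0.33 (SE 0.27, edgeR adjusted p = 0.315). With library totals, 7 of the 12 were higher and 3 lower.

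Of 10 core autophagy genes, 4 were higher and 3 lower (median log2 fold change 0.31), and 6 and 2 with library totals, near the shares of all genes (32.7% and 30.4%, and 54.9% and 16.6% with library totals). Past 2-fold were Ulk1, the kinase that starts autophagy, at 1.58 (SE 0.28, edgeR adjusted p = 0.00234), Wipi2 at 1.39 (SE 0.15, edgeR adjusted p = 0.000208) and Becn1, which fell by 1.2 (SE 0.09, edgeR adjusted p = 3.54e-05).

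Another family of immune GTPases, those that interferons induce, was mostly higher as well. Of 12 such genes tested, 10 were higher and 0 lower in reporter-positive cells, with a median log2 fold change of 2.84. Of all genes tested, 32.7% were called higher and 30.4% lower. At resolution 2, a cluster of 30 cells, 18 Fgd5+ and 12 HSC-Fgd5+, had Ifit1, Ifit3, Isg15 and Iigp1 among its leading genes. Its part in these sums was not tested. Iigp1 had 98.5 CPM in reporter-positive against 1.16 ± 0.349 CPM in Lin-kit+ libraries (log2 fold change 5.75, SE 0.18, edgeR adjusted p = 1.74e-06). The others past 2-fold ranged from 2.03 for Gbp7 to 4.32 for Gbp4, and were Gbp2, Gbp5, Gbp8, Gbp9, Irgm1, Irgm2 and Igtp besides (edgeR adjusted p of at most 0.000429). Gbp3 and Mx1 did not pass (0.04 and 0.22, edgeR adjusted p = 0.801 and 0.732), and Gbp6 and Mx2 were not tested.

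Genes with levels most like the summed GIMAP level were sought over 9 points, the 7 Lin-kit+ classes of at least 50 cells and the 2 reporter-positive libraries, by Pearson r of log2(CPM + 1) in 10642 genes. The points share libraries and marker-based names, and r is given as a description. Among the 10 highest were Vgll4 (0.983), Odf3b (0.977), Wbscr27 and 2810001G20Rik (0.975 each), Phf21a, Pglyrp2 and Lrrc36 (0.974 each), Msi2 (0.973) and Hbp1 (0.972). Msi2, which encodes an RNA-binding protein of stem cells, had 145 CPM in stem-like and 1.88 CPM in neutrophil-like Lin-kit+ cells and 142 and 185 CPM in Fgd5+ and HSC-Fgd5+ cells. The median r was 0.461, and 423 genes (3.97%) had an r of at least 0.9. Of the members themselves, which make up the sum, Gimap5 (0.996), Gimap1 (0.990) and Gimap6 (0.982) ran closest to it and Gimap7 (0.630) least.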

How the data were processed

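The authors deposited 1 table of raw UMI counts (genes by cells), made from combined sequencing runs. The submitters' processing notes name Cell Ranger (1.3 and 2.1), Seurat (2.3.4) and the build mm10. Members and gene lists were chosen with earlier results of these data known. Libraries were found by barcode suffix and cell number, all cells were kept, and CPM was computed on library totals.

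Counts summed per library were compared with edgeR 4.0.16 (R 4.3.3, TMM, filterByExpr, quasi-likelihood test, Benjamini-Hochberg adjustment, threshold 0.05), with DESeq2 1.42.0 among the alternatives. Both this test and the search for like genes were run on simulated data to check the code. For the test, far fewer genes were changed there than were called here, so the simulation does not vouch for these calls.

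Cells were clustered with scanpy 1.11.5 and leidenalg 0.10.2 (2000 variable genes without Fgd5, the members, Gm28053 and Gimap1os, 20 principal components, 15 neighbours, resolution 1), and the thresholds for names were set after clusters had been seen. Scrublet, run on each library, called 165 doublets (1.28%), which were kept. No per-cell filter was applied, since none is given for the table. Named genes were the members, list genes that passed with at least 2-fold change, and the 10 genes most like the summed level (at least 100 UMIs), of which 1 is not reported here. Intervals are exact Poisson for levels and Clopper-Pearson for shares, the limit for a share of 0 is 3 cells of the total, and ratios of gates carry a counting interval.

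Depth ran from 2166655 to 36080242 UMIs per library, so that 1 UMI weighs most in the HSC-Fgd5+ library. Alternatives covered the tool, scaling, low-count filter, cell filters, doublets, lymphoid cells, equal cell numbers, each library left out, clustering, gating by markers, thinning and the measure of likeness. After seeing the data, values without cells of shared barcodes and of stem-like cells alone were added. Flow cytometry and lineage tracing were not analysed here.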

Additional observations from a re-analysis of the deposited data

How the results depend on the processing

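Under the 13 alternatives to the edgeR test, 1 of them (shared barcodes left out) added after the data had been seen, Gimap1, Gimap3, Gimap4, Gimap5, Gimap6, Gimap8 and Gimap9 were higher and passed the threshold in all 13. The count of members called higher was 8 with library totals and 7 otherwise. Log2 fold changes ranged from 3.98 to 4.90 for Gimap1, 3.98 to 6.32 for Gimap3, 2.52 to 4.75 for Gimap4, 4.03 to 4.71 for Gimap5, 3.44 to 4.08 for Gimap6, 5.18 to 5.97 for Gimap8 and 1.2 to 1.86 for Gimap9. Gimap7 was 0.74 with library totals, past the threshold, and from -0.093 to 0.34 with 1 library left out, of which that without the Fgd5+ library had the opposite sign. With equal cell numbers it was not tested, since it failed the filter on low counts. The cause of these differences was not tested. The family was selected on counts in these same libraries. Passes of the threshold under the alternatives thus describe how the calls depend on processing and support nothing by themselves.

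Class levels moved with the definition of the classes. At the resolutions 0.5 and 2, the summed level was 733 and 770 CPM in stem-like, 168 and 444 CPM in lymphoid-primed multipotent-like and 4.94 and 4.01 CPM in monocyte or dendritic-like cells. Cells gated by marker UMIs gave 433 CPM for the stem class, 504 for the lymphoid-primed, 64.1 for the erythroid, 15.3 for the monocyte or dendritic and 29.8 for the neutrophil class, so that stem-like cells were no longer above lymphoid-primed cells. No T or NK-like class formed at resolution 0.5. Shares of cells with a member were 20.6%, 14.9% and 17.3% (libraries a, b and c), 96.5% (Fgd5+) and 86.7% (HSC-Fgd5+) with all UMIs, and 10.0%, 9.0%, 9.33%, 80.5% and 80.9% at 2000 UMIs. Of the 10 genes most like the summed level, Spearman rho kept 1 and a minimum of 500 UMIs kept 7. No paired analysis was possible because the labels number no replicates, and the numbers used here follow accession order and tie no libraries together. Levels of Gimap3, Gimap4, Gimap7 and Gimap8 are limited by depth.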
